A study of Homo sapiens with 18 samples.

Results

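The genes described here are 40 targets of the transcription factor p53, grouped as acting outside cell death and cell cycle arrest. Their products act in DNA repair, metabolism, autophagy, secretion and signaling. Some also act in death or arrest, among them APAF1 of the apoptosome and the antiproliferative BTG2. The rule for the 40 genes is a list of symbols and uses no measured value, although the list was drawn up with earlier results of these data known. Each symbol matched 1 gene, so that they make up 40 of the 60623 genes in the count table. All 40 passed the filter on low counts. RNA was measured in IMR90 cells, a widely used line of human lung fibroblasts, by sequencing of poly(A) RNA in 6 groups of 3 libraries each. The IR_RG7388 and IR_HDM201 groups were senescent cells that had received ionizing radiation and then, from day 4 to day 11 after it, the MDM2 inhibitor RG7388 or HDM201. IR_DMSO cells were irradiated and received the solvent DMSO over the same days. Prolif_RG7388, Prolif_HDM201 and Prolif_DMSO were proliferating cells given the same compounds or the solvent, and all cells were wild type. The labels give no days of treatment for the proliferating groups. The study used the compounds at different doses, so their values stand side by side with no ranking. By the study's description a replicate in culture is 1 well, and the labels do not say whether wells were irradiated apart, so p-values measure only the spread between such wells of 1 cell line.

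p53 is kept low in unstressed cells by MDM2, a ubiquitin ligase that p53 itself induces. DNA damage releases p53 from MDM2, and MDM2 inhibitors do so without damage by filling the pocket in MDM2 that binds p53. Freed p53 binds response elements made of a pair of half-sites and switches on genes near them. Best known are the genes of arrest and death, but p53 also drives enzymes of repair, redox balance and lipid turnover, regulators of mitochondria and lysosomes, and secreted or membrane proteins. Several of these genes are also induced by other stress pathways, among them GDF15, PLK2, BTG2 and GADD45A. In the study, MDM2 inhibition was used to raise p53 activity in senescent fibroblasts.

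Libraries held 21609198 to 66647705 counted reads. Levels are given in CPM, the usual unit of a read share, on TMM-scaled library sizes, and a change is a log2 fold change ± SE. A gene was called, and is said to have risen or fallen, at a Benjamini-Hochberg adjusted p under 0.05 over 18151 genes tested with edgeR. Fibroblast markers summed to 17446 to 57860 CPM in each library, against 2.51 to 14.9 CPM for 6 epithelial, 79.3 to 137 CPM for 5 endothelial and 0.948 to 3.78 CPM for 6 leukocyte markers. IR_DMSO replicate 1 and Prolif_HDM201 replicate 3 stood apart from their groups, with a median distance from their group of 0.29 and 0.39 on the log2 scale against 0.10 to 0.27 in the other 16 libraries. Results that rest on either library are given with and without it. Exons of 18 members share bases with another annotated gene, and because no source used here says whether reads were counted by strand, reads of XPC and its antisense partner XPC-AS1, which covers 24.6% of the XPC exons, cannot be told apart.

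Most of these genes were higher in senescent cells than in proliferating cells. In IR_DMSO against Prolif_DMSO, 31 of 40 rose and 5 fell, where 26.3% of all genes tested were higher and 25.3% were lower (51.6% in all). The median change of the 40 genes was 1.11, against 0.05 over all genes tested. Libraries of the 2 groups did not overlap for 37 of the 40, against 61.2% of all genes tested. By role, 5 of 6 genes of DNA repair and nucleotide supply rose, 7 of 9 of redox and metabolism, 4 of 4 of mitochondria and autophagy, 7 of 10 secreted, membrane and signaling proteins, and 7 of 9 growth control, kinase and nuclear factors, while of the pair APAF1 and PIDD1 the first fell and PIDD1 rose. In bulk RNA, a change in the number of expressing cells and a change in RNA per cell cannot be told apart.

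**Figure D1:**
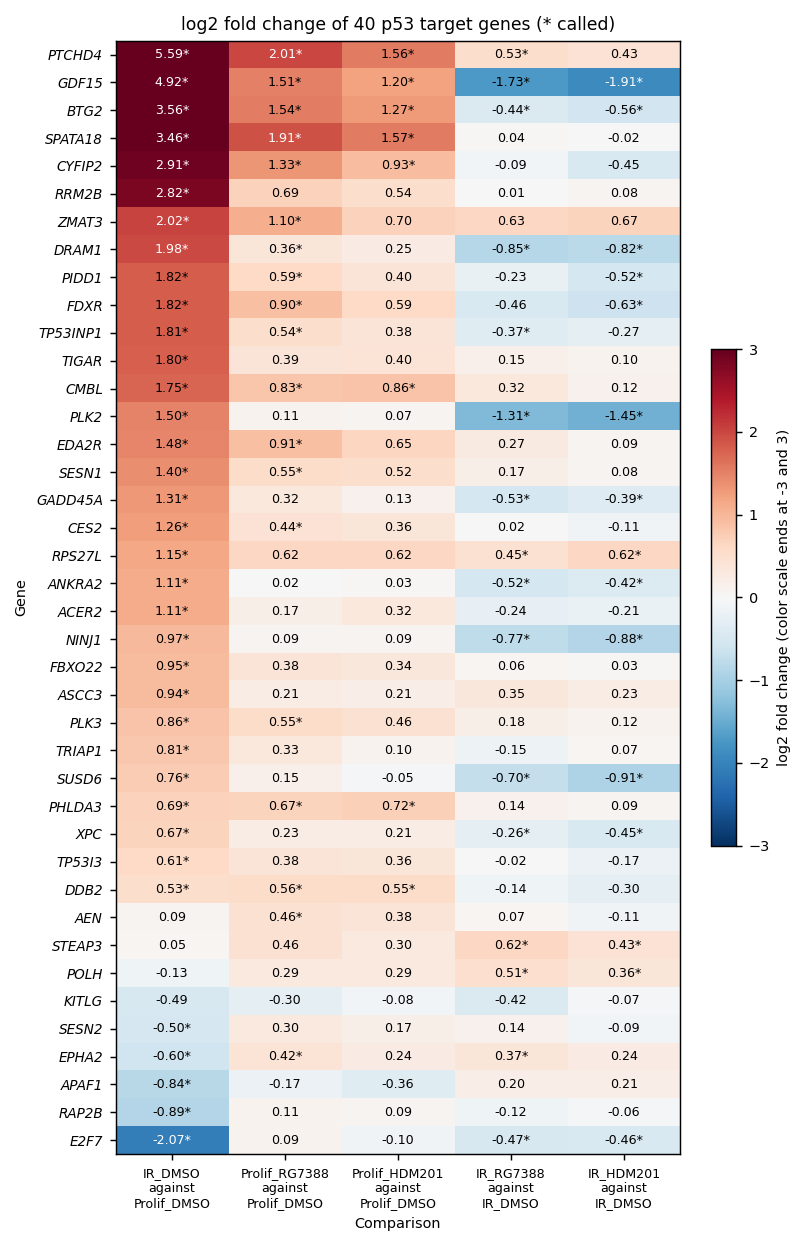
Heat map of log2 fold changes for the 40 p53 target genes, 1 gene per line, in 5 comparisons, with an asterisk for an adjusted p under 0.05. Genes are sorted by the change after irradiation, which ran from 5.59 for PTCHD4 to -2.07 for E2F7, and the first column is red for most genes while the last 2 columns are mixed.

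PTCHD4, a patched-domain membrane protein that represses Hedgehog signaling, showed the largest change of the 40. It had 9.31, 17.1 and 14.2 CPM in the IR_DMSO libraries, against 0.324, 0.172 and 0.273 CPM in Prolif_DMSO. The groups were far apart, at 5.59 ± 0.25 (48.2-fold, adjusted p = 1.13e-14), although the proliferating libraries held only 4 to 21 reads of this gene.

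The window at 1 of its 3 annotated RefSeq starts also holds a complete p53 site, so it is shown here with DDB2, which holds a full pair of half-sites, and AEN, which holds a near match. RefSeq windows on GRCh38.p14, from 250 bases before to 50 bases after a gene's start, were found for 33 of the 40 members. They were searched for the p53 consensus half-site, which has 10 bases and reads the same on both strands. Capitals mark the matched sites, spacer base included, in the 250 bases before the most distal annotated start of PTCHD4 (chr6:48111198-48111447, minus strand), in a stretch just after 1 of the 2 DDB2 starts (chr11:47214975-47215003, plus strand) and in one before the AEN start (chr15:88621302-88621329, plus strand).
PTCHD4: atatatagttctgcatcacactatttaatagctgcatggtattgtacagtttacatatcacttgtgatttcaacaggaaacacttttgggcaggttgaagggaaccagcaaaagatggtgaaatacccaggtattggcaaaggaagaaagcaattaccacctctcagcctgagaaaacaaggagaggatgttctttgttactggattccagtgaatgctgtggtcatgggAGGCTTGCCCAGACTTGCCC
DDB2: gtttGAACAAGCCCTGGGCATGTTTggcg
AEN: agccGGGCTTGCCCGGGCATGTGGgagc

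The PTCHD4 site ends at the base before the start and has no spacer, and the DDB2 site has a spacer of 1 base. The AEN site departs from the consensus at 2 positions. Of the 33 members, 8 had at least 1 half-site (24.2%), namely AEN, DDB2, FDXR, PLK2, PTCHD4, RAP2B, RPS27L and SESN1, against 2202 of 27305 genes in the table (8.06%). A pair of full half-sites with a spacer of up to 13 bases occurred in PTCHD4 and DDB2 (6.06%), against 10 genes in the whole table (0.0366%). A 20-base site without spacer and with up to 2 mismatches outside its fixed core bases, a definition added after the windows had been seen, occurred in AEN, DDB2 and PTCHD4 (9.09%), against 98 genes in the table (0.359%). The windows at the other PTCHD4 and DDB2 starts held 0 half-sites. These matches describe letters in a window and do not show binding.

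GDF15, a secreted stress cytokine of the TGF-beta superfamily, had 406, 314 and 338 CPM in IR_DMSO, against 10.6, 13.3 and 11.4 CPM in Prolif_DMSO. No library of one group came near the other, and the rise was 30.2-fold (4.92 ± 0.15, adjusted p = 5.69e-17). BTG2, an antiproliferative partner of the CCR4-NOT deadenylase, had 42.8, 43.0 and 40.5 CPM, against 3.32, 3.58 and 3.85 CPM in Prolif_DMSO (11.8-fold, adjusted p = 4.09e-16). SPATA18, also called Mieap and known for mitochondrial quality control, had 35.3, 41.7 and 39.3 CPM in IR_DMSO, against 3.07, 3.49 and 4.02 CPM in Prolif_DMSO (11.0-fold, adjusted p = 8.37e-16). These 4 genes held the largest rises after irradiation.

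Behind them came CYFIP2, a subunit of the WAVE actin-regulating complex (2.91 ± 0.20), and RRM2B, the p53-inducible small subunit of ribonucleotide reductase (2.82 ± 0.20). RRM2B had 107, 117 and 112 CPM in IR_DMSO, against 17.4, 13.7 and 16.4 CPM in Prolif_DMSO, with no overlap. The RNA-binding zinc finger protein ZMAT3 (2.02 ± 0.25) and the lysosomal autophagy protein DRAM1 (1.98 ± 0.09) followed. A further group lay between 1.75 and 1.82: PIDD1, scaffold of the PIDDosome, FDXR, the mitochondrial ferredoxin reductase, TP53INP1, a stress protein of autophagy, TIGAR, a phosphatase that lowers fructose-2,6-bisphosphate, and CMBL, a hydrolase.

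Smaller rises, from that of PLK2 down to 0.53 for DDB2, were found for 18 genes. Among them were PLK2, a stress-induced polo-like kinase (2.82-fold, adjusted p = 1.26e-10), EDA2R, the receptor of ectodysplasin A2 (1.48 ± 0.17), GADD45A, a sensor of growth arrest and damage (1.31 ± 0.13), and CES2, a carboxylesterase (1.26 ± 0.11). RPS27L, a paralog of ribosomal protein S27, rose by 1.15 ± 0.16, with 85.7 CPM in IR_DMSO replicate 1 and 159 and 157 CPM in the other 2, against 57.6, 61.9 and 61.1 CPM in Prolif_DMSO. The group also held ANKRA2, an ankyrin-repeat protein (1.11), ACER2, the Golgi alkaline ceramidase (1.11), NINJ1, which mediates rupture of the plasma membrane (0.97), FBXO22, a substrate receptor of an SCF ligase (0.95), and ASCC3, a helicase of alkylation repair and ribosome rescue (0.94). TRIAP1, a partner in mitochondrial lipid transfer (0.81), SUSD6, a sushi-domain membrane protein (0.76), PHLDA3, a repressor of AKT (0.69), and TP53I3, a quinone oxidoreductase also called PIG3 (0.61), also rose, and SESN1, PLK3, XPC and DDB2 are described below.

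Both nucleotide excision repair genes were in the weakest part of the rise. XPC, which finds lesions, had 57.5, 53.3 and 52.1 CPM in IR_DMSO, against 33.1, 35.0 and 34.4 CPM in Prolif_DMSO (0.67 ± 0.09, adjusted p = 1.83e-06). DDB2, which hands ultraviolet lesions to XPC, had 31.8, 43.4 and 43.9 CPM, against 28.1, 27.4 and 27.0 CPM in Prolif_DMSO (0.53 ± 0.13, adjusted p = 0.00176). In both genes every irradiated library lay above every proliferating one, with IR_DMSO replicate 1 the closest to the proliferating group for DDB2.

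A fall after irradiation was called for 5 members. E2F7, an atypical E2F that represses cell cycle genes, had 17.2, 17.5 and 19.2 CPM in IR_DMSO, against 70.5, 78.1 and 77.5 CPM in Prolif_DMSO (4.20-fold lower, adjusted p = 2.36e-11). In the same comparison all 15 cell division genes of a list set beside the members fell, and their part in the E2F7 result was not tested. RAP2B, a Ras-family GTPase (-0.89 ± 0.10), APAF1, the scaffold of the apoptosome (-0.84 ± 0.13), EPHA2, an ephrin receptor kinase (-0.60 ± 0.10), and SESN2 (-0.50 ± 0.12) were the others. The call on SESN2 ended when libraries were scaled by their totals alone and in limma on FPKM (adjusted p up to 0.158).

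The sestrin paralogs went apart. Sestrins restrain the growth kinase complex mTORC1 under stress. SESN1 rose (1.40 ± 0.13), with 14.6, 19.7 and 16.3 CPM in IR_DMSO, against 5.85, 5.95 and 7.35 CPM in Prolif_DMSO. SESN2 fell, with 43.4, 42.0 and 48.2 CPM, against 60.7, 66.2 and 61.6 CPM in Prolif_DMSO. The polo-like kinases PLK2 and PLK3 both rose, PLK3 by 0.86 ± 0.11. Differences between paralogs in the size of their change were not tested.

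The 4 members not called after irradiation were AEN, an exonuclease (0.09), STEAP3, a metalloreductase of iron uptake (0.05), POLH, the translesion polymerase eta (-0.13), and KITLG, the ligand of the receptor KIT (-0.49, adjusted p = 0.0594). KITLG was called lower by DESeq2 and in some other alternatives, among them the one without Prolif_DMSO replicate 2 (adjusted p = 0.0481). POLH went the other way in the authors' FPKM values, where limma on log2(FPKM + 1) gave 0.73, and 0.30 without IR_DMSO replicate 1 and Prolif_HDM201 replicate 3. In both FPKM fits the median of all genes was 0.21, against 0.05 in the counts. In FPKM, POLH had 31.1 in IR_DMSO replicate 1 and 11.7 and 12.6 in the other 2 libraries, against 8.72, 10.3 and 10.2 in Prolif_DMSO. Of 27 other genes of the p53 pathway tested, those of death, arrest and feedback, 16 rose and 5 fell. CDKN1A, which encodes p21, had 1709, 1868 and 1878 CPM in IR_DMSO, against 221.9, 246.3 and 225.5 CPM in Prolif_DMSO (2.98 ± 0.11).

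In proliferating cells, RG7388 moved these genes upward only. Of the 40, 19 rose and 0 fell in Prolif_RG7388 against Prolif_DMSO, where 1.2% of all genes tested were higher and 0.342% were lower (1.54% in all). DESeq2 called 24 higher and 0 lower, where it called 2.75% of all genes in either direction. At an unadjusted p under 0.05, 29 members were higher and 0 lower, and the share of all genes at that threshold is not given here. The median change was 0.43, against -0.00 over all genes tested. By role, 6 of 10 secreted, membrane and signaling genes rose, 4 of 9 growth control and nuclear factors, 4 of 9 of redox and metabolism, 3 of 4 of mitochondria and autophagy, 1 of 6 of repair and nucleotide supply, and PIDD1 of the pair APAF1 and PIDD1.

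PTCHD4 again had the largest rise (2.01 ± 0.31, adjusted p = 0.000649), at 1.17, 1.01 and 1.18 CPM in Prolif_RG7388, against 0.324, 0.172 and 0.273 CPM in Prolif_DMSO, from 23 to 37 reads in the treated libraries. SPATA18 had 12.6, 13.1 and 13.8 CPM, against 3.07, 3.49 and 4.02 CPM in Prolif_DMSO (3.75-fold, adjusted p = 4.15e-09). BTG2 had 9.51, 11.5 and 10.1 CPM, against 3.32, 3.58 and 3.85 CPM in Prolif_DMSO (2.90-fold, adjusted p = 8.38e-08). For these genes no treated library overlapped the solvent group.

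GDF15 had 33.5, 35.0 and 31.6 CPM in Prolif_RG7388, against 10.6, 13.3 and 11.4 CPM in Prolif_DMSO (2.86-fold, adjusted p = 3.66e-07). CYFIP2 rose by 1.33 ± 0.20, with 6.67, 6.53 and 7.88 CPM, against 1.99, 3.41 and 3.25 CPM in Prolif_DMSO. The groups were apart in both genes, but the CYFIP2 call ended in limma on FPKM (adjusted p up to 0.808). CMBL (0.83 ± 0.12, adjusted p = 0.000529) and EDA2R (0.91 ± 0.17, adjusted p = 0.00578) rose as well.

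The other 12 of the 19, with changes of 0.36 to 1.10, were AEN, CES2, DDB2, DRAM1, EPHA2, FDXR, PHLDA3, PIDD1, PLK3, SESN1, TP53INP1 and ZMAT3. Each of them lost its call when at least 1 library was left out, with adjusted p of at most 0.252. The count fell to 7 without Prolif_DMSO replicate 1, to 10 without Prolif_DMSO replicate 2, Prolif_DMSO replicate 3 or Prolif_RG7388 replicate 1, to 11 without Prolif_RG7388 replicate 2 and to 9 without Prolif_RG7388 replicate 3. With any of these libraries left out, 0.5% to 0.7% of all genes were called in either direction, against 1.54% with all libraries. The 7 genes PTCHD4, SPATA18, BTG2, GDF15, CYFIP2, CMBL and EDA2R were called without any 1 library. Libraries of the 2 groups did not overlap for 30 of the 40 members, all 30 higher, where 15.2% of all genes tested were higher without overlap.

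HDM201 gave 8 genes higher and 0 lower in Prolif_HDM201 against Prolif_DMSO, where 0.545% of all genes tested were higher and 0.154% were lower (0.7% in all). They were SPATA18, PTCHD4, BTG2, GDF15, CYFIP2, CMBL, PHLDA3 and DDB2, and the comparison uses the same Prolif_DMSO libraries as that with RG7388. DESeq2 called 14 higher and 0 lower, where it called 1.45% of all genes in either direction. At an unadjusted p under 0.05, 27 members were higher and 1 lower, again without a share of all genes at that threshold. Prolif_HDM201 replicate 3 lay below the other 2 libraries of its group for most of these genes. SPATA18 had 10.4, 11.1 and 9.75 CPM, against 3.07, 3.49 and 4.02 CPM in Prolif_DMSO (2.96-fold, adjusted p = 1.49e-07). GDF15 had 32.1, 27.6 and 20.8 CPM, against 10.6, 13.3 and 11.4 CPM in Prolif_DMSO (2.29-fold, adjusted p = 1.77e-05). Neither gene overlapped between the groups.

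Without Prolif_HDM201 replicate 3 the count was 23, 22 higher and 1 lower, while 8.91% of all genes were then called in either direction, against 0.7% with it. It was 4 without Prolif_DMSO replicate 1, Prolif_DMSO replicate 3 or Prolif_HDM201 replicate 1. The share of all genes called was then 0.229%, 0.311% and 0.308%. SPATA18, BTG2, GDF15 and CMBL (0.86 ± 0.12) were called without any 1 library, and the calls on PTCHD4, CYFIP2, PHLDA3 and DDB2 ended without some of them (adjusted p up to 0.272). For CYFIP2, log2(FPKM + 0.1) gave -0.06 in place of 0.93, with 1.69, 1.79 and 0.615 FPKM in Prolif_HDM201, against 1.30, 1.48 and 1.14 FPKM in Prolif_DMSO. Without both libraries that stood apart, log2(FPKM + 1) gave 0.25 for CYFIP2, which was not called (adjusted p = 0.538 by limma). In libraries of both compounds CDKN1A rose too, at 733, 797 and 715 CPM in Prolif_RG7388 and 701, 673 and 508 CPM in Prolif_HDM201, against 222, 246 and 225 CPM in Prolif_DMSO. Of the 27 genes of death, arrest and feedback, 8 rose with RG7388 and 6 with HDM201 in proliferating cells, and 0 fell with either.

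**Figure D2:**
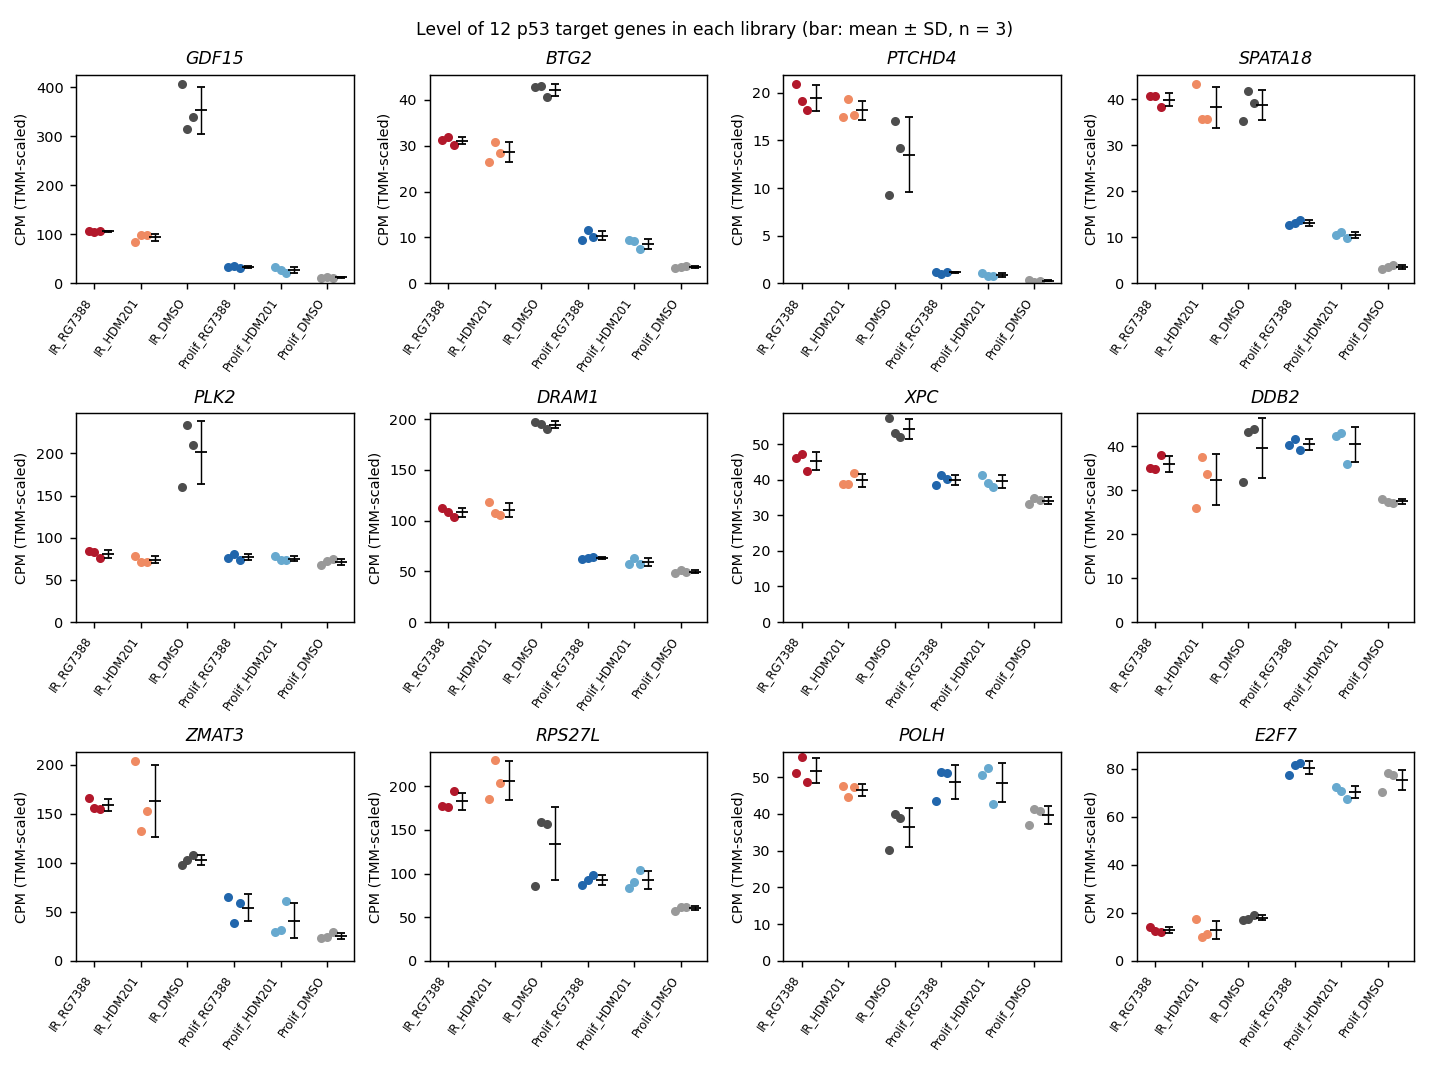
Level in CPM of 12 of the genes in each library, on linear axes from 0, with 3 points per group and a bar for the mean and SD (n = 3). GDF15, PLK2 and DRAM1 are lower in both irradiated compound groups than in IR_DMSO, RPS27L shows IR_DMSO replicate 1 at 85.7 CPM apart from 157 and 159 CPM, and E2F7 is low in all irradiated groups.

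In cells already senescent, the compounds moved the 40 genes in both directions. RG7388 raised 5 and lowered 11 in IR_RG7388 against IR_DMSO, where 10.9% of all genes tested were higher and 11.9% were lower (22.8% in all). HDM201 raised 3 and lowered 12 in IR_HDM201 against IR_DMSO, where the shares were 9.96% and 11.3% (21.3% in all). The median change of the members was -0.00 with RG7388 and -0.08 with HDM201, against -0.03 and -0.02 over all genes tested. Both comparisons use the same IR_DMSO libraries, which also enter the comparison with Prolif_DMSO. Of the 27 genes of death, arrest and feedback, 7 rose and 8 fell with RG7388, and 8 rose and 7 fell with HDM201. CDKN1A had 2077, 2089 and 2165 CPM in IR_RG7388 and 1656, 1840 and 1795 CPM in IR_HDM201, against 1709, 1868 and 1878 CPM in IR_DMSO. With libraries scaled by their totals alone, 2 members were higher and 15 lower with RG7388, and 2 higher and 18 lower with HDM201. In that setting 25.8% and 23.8% of all genes were called in either direction.

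GDF15 fell most. It had 106, 105 and 107 CPM in IR_RG7388 and 84.9, 97.7 and 98.3 CPM in IR_HDM201, against 406, 314 and 338 CPM in IR_DMSO. Its level was 3.32-fold lower with RG7388 (-1.73 ± 0.13, adjusted p = 9.03e-10) and 3.77-fold lower with HDM201 (-1.91 ± 0.13, adjusted p = 2.65e-10). All treated libraries still lay above the 10.6 to 13.3 CPM of Prolif_DMSO. PLK2 had 84.6, 82.6 and 75.8 CPM in IR_RG7388 and 78.6, 71.7 and 71.0 CPM in IR_HDM201, against 161, 234 and 209 CPM in IR_DMSO. It was 2.49-fold lower with RG7388 (adjusted p = 6.32e-09) and 2.73-fold lower with HDM201 (adjusted p = 1.97e-09), which placed it close to the 67.4 to 74.4 CPM of Prolif_DMSO.

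DRAM1 came next, at 113, 109 and 104 CPM in IR_RG7388 and 119, 107 and 105 CPM in IR_HDM201, against 197, 196 and 191 CPM in IR_DMSO (-0.85 ± 0.09 and -0.82 ± 0.09). NINJ1 had 32.1, 29.4 and 29.4 CPM in IR_RG7388 and 25.6, 31.1 and 28.1 CPM in IR_HDM201, against 44.2, 53.8 and 57.4 CPM in IR_DMSO (-0.77 ± 0.14 and -0.88 ± 0.14). SUSD6 had 35.7, 35.1 and 33.6 CPM in IR_RG7388 and 31.3, 27.7 and 31.1 CPM in IR_HDM201, against 57.8, 55.6 and 56.6 CPM in IR_DMSO (-0.70 ± 0.11 and -0.91 ± 0.12). None of the treated libraries overlapped the solvent libraries in these 3 genes. BTG2 fell less, with 31.3, 31.8 and 30.2 CPM in IR_RG7388 and 26.4, 30.8 and 28.4 CPM in IR_HDM201, against 42.8, 43.0 and 40.5 CPM in IR_DMSO (-0.44 ± 0.11 and -0.56 ± 0.11).

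ANKRA2 (-0.52 with RG7388 and -0.42 with HDM201), E2F7 (-0.47 and -0.46), GADD45A (-0.53 and -0.39) and XPC (-0.26 and -0.45) also fell with both compounds. Of the 15 cell division genes, 14 fell with RG7388 (median -1.46) and 10 with HDM201 (median -0.78), and 0 rose. Their part in the E2F7 falls was not tested. XPC had 46.3, 47.3 and 42.5 CPM in IR_RG7388 and 38.7, 38.9 and 41.9 CPM in IR_HDM201, against 57.5, 53.3 and 52.1 CPM in IR_DMSO, with no overlap. Its call with RG7388 (adjusted p = 0.0418) ended when any 1 library was left out (adjusted p = 0.0711 to 0.213). The XPC call with HDM201 (adjusted p = 0.00103) held in every alternative fit, but the change was less than 1.5-fold. In the study, qPCR showed XPC induced by short-term RG7388 in irradiated cells, while the libraries here were treated from day 4 to day 11. GADD45A had 198 CPM in IR_DMSO replicate 1 and 123 and 129 CPM in the other 2, and without that library its calls ended with RG7388 (adjusted p = 0.0581) and with HDM201 (0.406).

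Falls called with one compound only were TP53INP1 with RG7388 (-0.37 ± 0.11) and PIDD1 (-0.52 ± 0.13) and FDXR (-0.63 ± 0.17) with HDM201, and the difference between the compounds was not tested. The FDXR call was lost on leaving out replicate 1 of IR_DMSO or of IR_HDM201 (adjusted p up to 0.112), the PIDD1 call without IR_HDM201 replicate 1 (0.0622) and the TP53INP1 call without IR_RG7388 replicate 3 (0.0745). The E2F7 calls ended without IR_DMSO replicate 3 or without replicate 2 or 3 of either compound group (adjusted p up to 0.147), and the ANKRA2 call with HDM201 was lost on leaving out replicate 2 of the solvent group or replicate 1 of the HDM201 group (up to 0.0626).

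Beside these falls, transcripts of other stress pathways, which can induce some of the same genes, also moved in the same libraries. All 14 genes of an NF-kB response list fell with each compound, with medians of -4.08 and -4.02, and 10 of 18 immediate early genes fell with each, while 2 rose with RG7388 and 1 with HDM201. Of 15 integrated stress response genes, 5 fell and 1 rose with RG7388, and 4 fell and 2 rose with HDM201. ATF3, a stress-induced transcription factor, fell by 2.24 with RG7388 and by 2.10 with HDM201 on the log2 scale. Their part in the change of GDF15, PLK2, BTG2 and the others was not tested. In proliferating cells the median of the NF-kB list was -0.11 with each compound. After irradiation, where GDF15, PLK2, BTG2 and GADD45A rose, 13 of 14 NF-kB genes rose and 0 fell. In that comparison 5 of 18 immediate early genes rose and 10 fell, and 2 of 15 integrated stress response genes rose and 11 fell.

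Fewer members rose in senescent cells. STEAP3 had 135, 137 and 133 CPM in IR_RG7388 and 114, 114 and 127 CPM in IR_HDM201, against 81.3, 88.8 and 93.8 CPM in IR_DMSO (0.62 ± 0.12 and 0.43 ± 0.12). POLH had 51.1, 55.5 and 48.7 CPM in IR_RG7388 and 47.6, 44.6 and 47.3 CPM in IR_HDM201, against 30.3, 39.9 and 38.8 CPM in IR_DMSO (0.51 ± 0.12 and 0.36 ± 0.12). Neither gene overlapped between treated and solvent libraries, but on log2(FPKM + 1) the POLH estimates were -0.25 with RG7388 and -0.36 with HDM201. Without both libraries that stood apart they were 0.18 and 0.07, and none of the 4 was called by limma. The STEAP3 call with HDM201 was lost on leaving out IR_DMSO replicate 1 or the third library of IR_HDM201 (adjusted p up to 0.0714), and that on POLH on leaving out replicate 1 of either group or the third library of IR_HDM201 (up to 0.160).

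RPS27L had 177, 177 and 194 CPM in IR_RG7388 and 186, 230 and 203 CPM in IR_HDM201, against 85.7, 159 and 157 CPM in IR_DMSO (0.45 ± 0.16 and 0.62 ± 0.16). The IR_DMSO group was spread by its replicate 1, and the call with RG7388 (adjusted p = 0.0498) ended without that library or any 1 of the treated libraries (up to 0.200). PTCHD4 rose with RG7388 (0.53 ± 0.16, adjusted p = 0.0224), with 20.9, 19.2 and 18.3 CPM, against 9.31, 17.1 and 14.2 CPM in IR_DMSO. Leaving out replicate 1 of either group, or replicate 2 of IR_RG7388, removed this call (up to 0.124). EPHA2 rose with RG7388 (0.37 ± 0.10, adjusted p = 0.00803), and here no single library decided the call.

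The other 22 members were not called with either compound in senescent cells. Among them, SPATA18 had 40.6, 40.7 and 38.3 CPM in IR_RG7388 and 43.3, 35.6 and 35.8 CPM in IR_HDM201, against 35.3, 41.7 and 39.3 CPM in IR_DMSO. The 95% interval of its change was -0.20 to 0.29 with RG7388 and -0.26 to 0.23 with HDM201. ZMAT3 had estimates of 0.63 and 0.67 that missed the threshold (adjusted p = 0.069 and 0.0572), and DESeq2 called both. RRM2B, which was 7.05-fold higher after irradiation, had estimates of 0.01 with RG7388 and 0.08 with HDM201, with intervals of -0.38 to 0.41 and -0.31 to 0.47. RRM2B, TIGAR, ACER2, FBXO22, ASCC3, TRIAP1 and TP53I3 (higher) and APAF1, RAP2B and SESN2 (lower) were called after irradiation and in no other of the 5 comparisons, and KITLG was called in none.

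**Figure D3:**
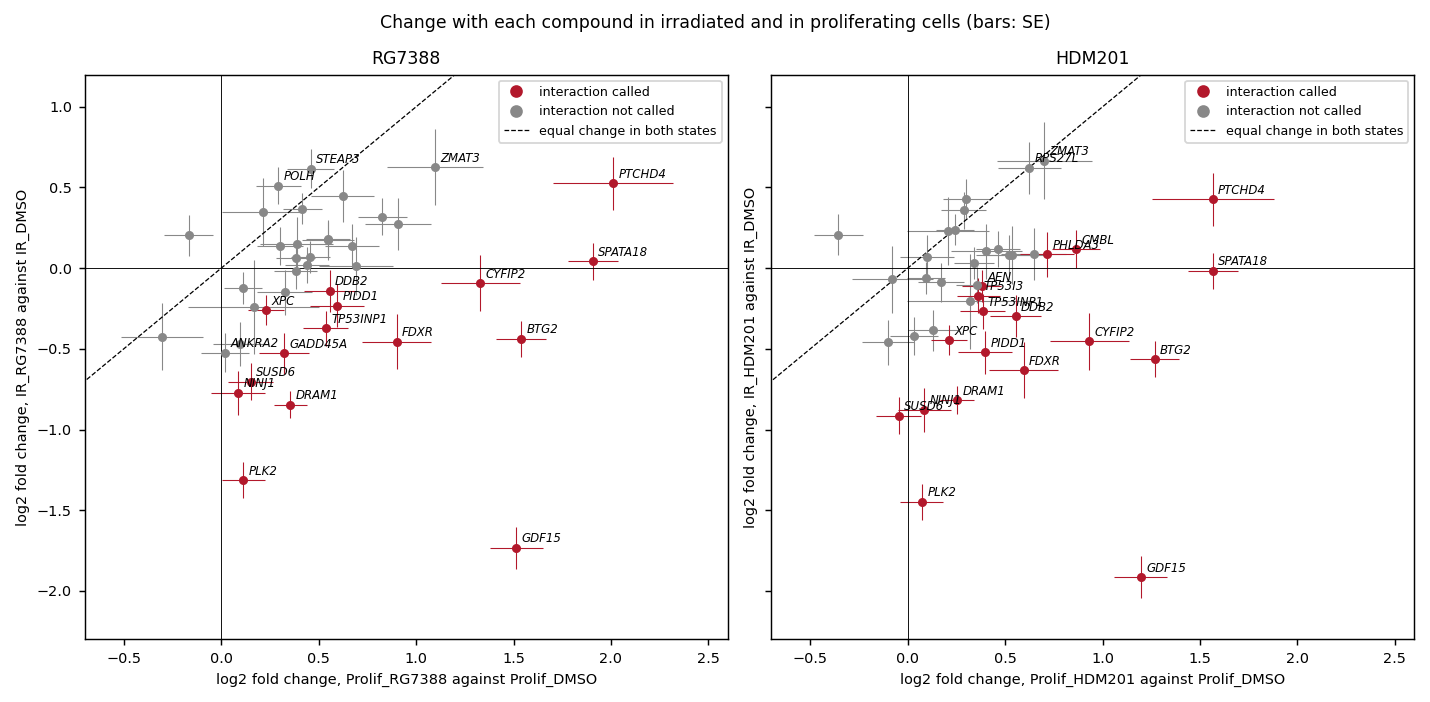
Change of each of the 40 genes with RG7388 (left) and HDM201 (right), with the change in proliferating cells on the x axis, the change in irradiated cells on the y axis, bars for the SE and a dashed line for equal change. Most points lie below the dashed line, and red points, whose changes differed between the states by the interaction test, reach with RG7388 from XPC to GDF15 at 1.51 in proliferating and -1.73 in irradiated cells, and with HDM201 from AEN to GDF15 at -1.91 in irradiated cells.

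The effect of each compound was then compared between the states within 1 model, as its log2 change in irradiated cells minus that in proliferating cells. Because the length of treatment is not given for proliferating cells, a difference in exposure cannot be told apart from one in cell state. With RG7388 this difference was below 0 for 15 members and above 0 for 0, where 5.27% of all genes tested were lower and 2.2% were higher (7.47% in all). With HDM201 the counts were 18 and 0, where the shares were 5.67% and 2.97% (8.64% in all). At an unadjusted p under 0.05, 1 member was higher and 28 were lower with RG7388, and 1 was higher and 25 were lower with HDM201. The share of all genes at that threshold is again not given. DESeq2 called 0 higher with RG7388 and 1 with HDM201, which was APAF1, where it called 9.33% and 11.1% of all genes in either direction. The median difference of the members was -0.50 with each compound, against -0.00 and -0.01 over all genes tested. Of the 27 genes of death, arrest and feedback, the difference was below 0 for 9 and above 0 for 3 with RG7388, and for 10 and 3 with HDM201.

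The largest difference was in GDF15 (-3.25 ± 0.19 with RG7388, adjusted p = 5.38e-11), which RG7388 raised 2.86-fold in proliferating cells and lowered 3.32-fold in irradiated cells. Of the 19 members that rose with RG7388 in proliferating cells, 4 fell in irradiated cells (BTG2, DRAM1, GDF15 and TP53INP1), 2 rose (EPHA2 and PTCHD4) and 13 were not called. Of the 8 that rose with HDM201 in proliferating cells, 2 fell in irradiated cells (BTG2 and GDF15), 0 rose and 6 were not called. SPATA18 differed between the states (-1.87 ± 0.17 with RG7388 and -1.58 ± 0.17 with HDM201), with a rise in proliferating cells and no call in irradiated cells. PLK2 differed (-1.43 ± 0.16 and -1.52 ± 0.16) with estimates of 0.11 and 0.07 in proliferating cells that were not called.

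FDXR (-1.36 and -1.22), CYFIP2 (-1.42 and -1.38) and PTCHD4 (-1.48 and -1.14) also differed by more than 1 with both compounds, as did BTG2 (-1.98 and -1.83) and DRAM1 (-1.20 and -1.07). PTCHD4 rose with RG7388 in both states, and its call with HDM201 (adjusted p = 0.0473) ended when any 1 library was left out other than IR_DMSO replicate 1 or Prolif_HDM201 replicate 3 (up to 0.150). In FPKM the PTCHD4 differences depended on the pseudocount, at -1.12 with RG7388 and -0.84 with HDM201 for a pseudocount of 0.1 and 0.04 and 0.10 for a pseudocount of 1, where PTCHD4 had 0.0263 to 0.371 FPKM in proliferating cells. Differences in DDB2 (-0.70 and -0.85) and XPC (-0.49 and -0.66) were called with both compounds, but with RG7388 those calls ended without some single libraries (adjusted p up to 0.0677 for DDB2 and 0.0855 for XPC).

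**Figure D4:**
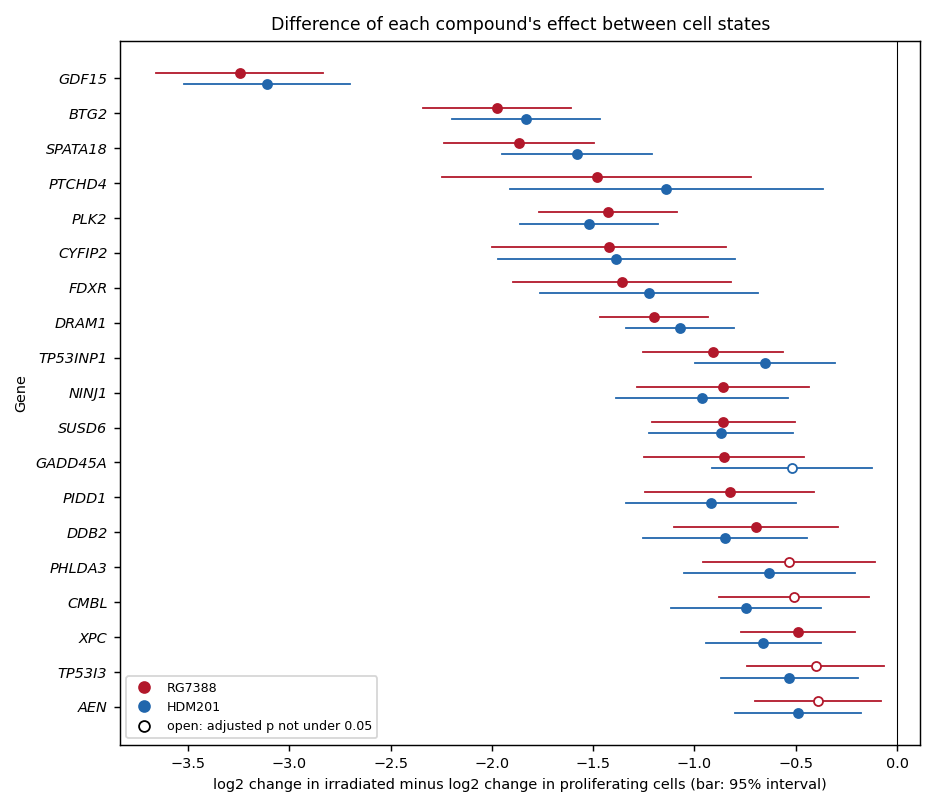
Difference between the log2 change in irradiated cells and that in proliferating cells for the 19 genes called with at least 1 compound, with dots for the estimate and bars for the 95% interval, RG7388 above HDM201 for each gene. All plotted estimates lie below 0, from -3.25 for GDF15 to -0.39 for AEN, and open dots mark estimates not called.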

How the data were processed

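Per the labels and the study's methods, the authors aligned reads to hg38 with STAR, counted reads per gene with HTSeq and computed FPKM with Cufflinks, with versions not given in the sources used here. The deposited counts were not normalized, and the deposited FPKM were used only as an alternative. The FPKM of a library summed to 558464 to 14004856 and were not rescaled between libraries. Samples were grouped by state and treatment as labelled. Of 60668 genes, 45 pseudoautosomal copies were left out. Counts of all 18 libraries (21609198 to 66647705 reads) were filtered with filterByExpr, scaled by TMM and fitted with edgeR 4.0.16 (quasi-likelihood, robust, 12 residual degrees of freedom, R 4.3.3), with Benjamini-Hochberg adjustment over 18151 genes. The SE is the change divided by the root of F. The fit was tested on simulated data.

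Alternatives were DESeq2 1.42.0, its size factors, library totals alone, other filters, thresholds of 0.01 and 1.5-fold, only the groups compared, a replicate block, limma 3.58.1 on log2-scaled FPKM (pseudocount 1 or 0.1), and each library left out. Leaving out both libraries that stood apart, in counts and in FPKM, was added after seeing the data. The members and lists were chosen with earlier results of these data known. All 40 members are reported, and genes of the other lists are named where a result turns on them. Promoter windows and their sequences are from RefSeq (GRCh38.p14).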

Additional observations from a re-analysis of the deposited data

Results flagged for a closer look

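The effect of a compound in irradiated cells differed from its effect in proliferating cells by the interaction test for 15 members with RG7388 and 18 with HDM201 (edgeR, adjusted p under 0.05), and each difference is given here as the log2 change in irradiated cells minus that in proliferating cells. With RG7388 the differences were GDF15 (-3.25), BTG2 (-1.98), SPATA18 (-1.87), PTCHD4 (-1.48), PLK2 (-1.43), CYFIP2 (-1.42), FDXR (-1.36), DRAM1 (-1.20), TP53INP1 (-0.91), NINJ1 (-0.86), SUSD6 (-0.86), GADD45A (-0.85), PIDD1 (-0.83), DDB2 (-0.70) and XPC (-0.49). With HDM201 they were GDF15 (-3.11), BTG2 (-1.83), SPATA18 (-1.58), PLK2 (-1.52), CYFIP2 (-1.38), FDXR (-1.22), PTCHD4 (-1.14), DRAM1 (-1.07), NINJ1 (-0.96), PIDD1 (-0.92), SUSD6 (-0.87), DDB2 (-0.85), CMBL (-0.74), XPC (-0.66), TP53INP1 (-0.65), PHLDA3 (-0.63), TP53I3 (-0.53) and AEN (-0.49). All were below 0, and the 2 compounds were set against the same solvent libraries. Leaving out some single library ended 2 of the 15 calls with RG7388 and 4 of the 18 with HDM201. Without IR_DMSO replicate 1, 14 and 17 of these calls held, and without Prolif_HDM201 replicate 3 all 18 with HDM201 held. With HDM201 the highest adjusted p by edgeR were 0.0473 for PTCHD4, 0.0452 for PHLDA3, 0.0324 for TP53I3 and 0.0321 for AEN.

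The cell state was a designed factor, but the labels give no days of treatment for proliferating cells, so exposure cannot be told apart from it. The irradiated solvent cells already had higher levels of most of these genes, with a median change of 1.11 over the 40. In the same interaction tests all 14 genes of the NF-kB list were lower with RG7388 and 12 with HDM201, and 8 and 9 of 18 immediate early genes were lower. Of 15 integrated stress response genes, 3 were lower with each compound, while 1 was higher with RG7388 and 2 with HDM201. Their part in these differences was not tested. Groups of 3 libraries were too small for a test of single outlying libraries.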

How the results depend on the processing

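Calls on the members after irradiation held best and calls with the compounds in proliferating cells held least. The members called numbered 36 after irradiation, 16 with RG7388 and 15 with HDM201 in irradiated cells, and 19 and 8 in proliferating cells. Of these, 35, 7, 7, 3 and 3 were called in every alternative except the stricter thresholds on adjusted p and on fold change. With the same exception, 10 of 15 and 12 of 18 differences between the states were called in every alternative. Leaving out 1 library at a time gave 36 to 37 members after irradiation, 12 to 17 with RG7388 and 11 to 15 with HDM201 in irradiated cells, 7 to 11 with RG7388 and 4 to 23 with HDM201 in proliferating cells, and 13 to 16 and 14 to 23 differences between the states. In the same order, the shares of all genes called were 43.4% to 48.2%, 15.2% to 19.1%, 15.9% to 17.8%, 0.5% to 0.7% and 0.229% to 8.91%. For the differences between the states they were 5.22% to 6.78% and 5.94% to 15.7%. The highest count with HDM201 in proliferating cells came without Prolif_HDM201 replicate 3. Without both libraries that stood apart, counts were 26 there (24 higher, 2 lower, with 15.4% of all genes called), 27 with RG7388 in proliferating cells (7.83% of all genes) and 23 for the RG7388 difference between states (12% of all genes).

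A 1.5-fold minimum gave 34 members after irradiation, 6 with RG7388 and 7 with HDM201 in irradiated cells, and 11 with RG7388 in proliferating cells. An adjusted p under 0.01 gave 9 with HDM201 in irradiated cells, and 7 with RG7388 and 4 with HDM201 in proliferating cells. The shares of all genes at these thresholds are not given here, so members and other genes cannot be compared there. On log2(FPKM + 1), limma gave 10 members with RG7388 (0.839% of all genes) and 4 with HDM201 (0.372%) in proliferating cells. Without a filter on low values it gave 4 and 3 (0.17% and 0.128%), and with both outlying libraries dropped 21 and 17 (4.44% and 6.35%). With HDM201 in proliferating cells, no filter on low counts gave 13 (0.304% of all genes), only the groups compared 3 (0.134%) and DESeq2 14 (1.45%). The RG7388 difference between states was called for 25 members with library totals alone (9.75%) and 23 with only the groups compared (11.9%). Library totals alone moved the median of all genes by 0.29 after irradiation, by -0.19 with RG7388 and by -0.15 with HDM201 in irradiated cells, and the share of called genes that were higher was 71.5%, 20.2% and 22.5%, against 51.0%, 48.0% and 46.8% with TMM.

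Directions that turned all came from FPKM. POLH estimates were 0.77 and 0.73 after irradiation, -0.26 and -0.25 with RG7388 and -0.37 and -0.36 with HDM201 in irradiated cells (pseudocounts of 0.1 and 1). Without both libraries that stood apart, POLH on log2(FPKM + 1) was at 0.30, 0.18 and 0.07. The turn with the compounds thus rests on IR_DMSO replicate 1, the only one of them in those comparisons. The turn after irradiation does not rest on it, but the median of all genes after irradiation was 0.21 in that fit. CYFIP2 estimates with HDM201 in proliferating cells were -0.0581 and -0.00184, and 0.25 with both left out. The PTCHD4 differences between the states were 0.0385 with RG7388 and 0.10 with HDM201 at a pseudocount of 1, which lies above its FPKM in proliferating cells, and -1.12 and -0.84 at a pseudocount of 0.1.

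The replicate numbers did not pair the samples, since 9 of 45 pairs of same-numbered libraries had deviations correlated above 0.1 and 8 of 18 libraries correlated best with their own number. The replicate block gave 37, 16, 16, 18 and 9 members in the order above, and 15 and 16 differences between the states.

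Depth limits PTCHD4 most, with 4 to 21 reads in Prolif_DMSO libraries. The 3 libraries per group limit the small changes.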
